A study of Caenorhabditis elegans with 2 samples.

Results

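The actin genes of Caenorhabditis elegans, act-1, act-2, act-3, act-4 and act-5, were examined for binding by PBRM-1. They were taken by symbol from the Ensembl WBcel235 annotation and are 5 of the 19973 protein-coding genes on the 6 nuclear chromosomes. Binding was measured by chromatin immunoprecipitation and sequencing (ChIP-seq), which recovers the DNA fragments attached to a chosen protein. The animals were whole young adults of strain RW12226, aged 64.5 h and synchronised as starved L1 larvae after bleaching. In this strain the allele st12226 of pbrm-1 carries TY1, EGFP and 3xFLAG tags, inserted by CRISPR, and the tagged protein was pulled down with an anti-GFP antibody. A control experiment is named in the labels and was not used here. Both biological replicates belong to 1 group and there is no untagged or mutant group among the files used here, so no condition is compared and no test between conditions was possible. A whole animal holds muscle, gut, germ line and other tissues, and the tissue from which a peak came cannot be told from these data.

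Actin polymerises into filaments that pull against myosin in muscle, shape the cell cortex and fill the microvilli of the gut. In C. elegans, act-1, act-2 and act-3 lie side by side and act-4 lies elsewhere, and they serve muscle and the early embryo, whereas act-5 makes the actin of intestinal microvilli. PBRM-1 is the polybromo subunit of PBAF, a form of the SWI/SNF complex that uses ATP to slide and evict nucleosomes, and its bromodomains read acetylated histones. In mammals the same complexes hold actin and an actin-related protein as subunits.

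A gene is called bound here when the summit of a deposited peak lay from 1000 bp upstream to 200 bp downstream of the annotated 5' end of any of its transcripts, which is called its promoter window. The list made from both replicates, the series list, held 3243 peaks. A conservative version held 2917, and the lists of replicate 1 and replicate 2 alone held 1370 and 2173. These lists hold peaks with an irreproducible discovery rate (IDR) of at most 0.01, a measure of how likely a peak is not to recur in a second ranking. The ranked lists before that threshold held 89851 candidates for the series, 54625 for replicate 1 and 48976 for replicate 2. The signal quoted for each peak is the authors' own value, and the sources used here do not give its scaling, so signals are set side by side only within 1 list. Read depth is unknown from peak lists. Coordinates refer to ce11 and start at 1.

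In the series list 4 of the 5 actin genes, 80.0%, were bound, namely act-1, act-2, act-3 and act-4, beside 9.87% of all protein-coding genes. Of these, act-1, act-2 and act-3 are neighbours in 1 cluster, so the share is a description of few loci. In the conservative list 3 were bound, act-1, act-2 and act-3, beside 8.99% of all genes. Only act-2 was bound in the list of replicate 1 alone, where 4.63% of all genes were, and only act-2 in that of replicate 2, where 7.63% were. The gene act-5 was bound in none of these lists. Within the gene body, from its first to its last base, act-4 alone held a series summit, 1 of 5 members beside 5.28% of all genes.

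The cluster of act-3, act-2 and act-1 spans 10726 bp of chromosome V, V:11071690-11082415. The gene act-3 (WBGene00000065) lies on the minus strand at V:11071690-11074498, act-2 (WBGene00000064) on the minus strand at V:11076777-11078154 and act-1 (WBGene00000063) on the plus strand at V:11081052-11082415. Between act-3 and act-2 lie 2278 bp and between act-2 and act-1 lie 2897 bp. The act-2 and act-1 genes point away from each other, so the longer gap holds both of their promoters. The gene act-4 (WBGene00000066) lies on the plus strand at X:4960621-4964413 and act-5 (WBGene00000067) on the minus strand at III:13604412-13606066.

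The sequences around the summits of the 3 cluster promoters are shown first because these are the peaks by which act-1, act-2 and act-3 are called bound. Each is written 5' to 3' in the direction of its gene, from the RefSeq copy of the WBcel235 (ce11) assembly, and covers V:11080426-11080576 on the plus strand for act-1, V:11078494-11078644 on the minus strand for act-2 and V:11074685-11074835 on the minus strand for act-3. Capitals mark CCAAT, or ATTGG where it lies on the other strand, and in act-2 also the CArG box, the sequence bound by serum response factor in mammals.
act-1 summit: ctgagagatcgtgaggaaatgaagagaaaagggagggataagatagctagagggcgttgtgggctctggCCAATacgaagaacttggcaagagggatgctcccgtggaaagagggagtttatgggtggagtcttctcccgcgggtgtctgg
act-2 summit: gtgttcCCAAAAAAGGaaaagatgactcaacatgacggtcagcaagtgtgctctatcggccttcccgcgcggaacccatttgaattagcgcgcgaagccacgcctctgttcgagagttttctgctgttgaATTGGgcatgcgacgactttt
act-3 summit: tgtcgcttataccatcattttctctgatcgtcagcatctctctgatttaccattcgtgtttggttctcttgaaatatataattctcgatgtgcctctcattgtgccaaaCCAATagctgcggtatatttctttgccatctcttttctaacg
Each of the 3 stretches holds CCAAT once on 1 of the strands. The CArG box near the act-2 summit was present in only 22 of the 3243 series summit windows of 201 bp, 0.678%, and in none of the other 6 windows at actin genes. CCAAT was found in 5 of the 7 windows at actin genes and in 31.1% of all series windows. The GC content of the 7 windows ran from 37.3% to 51.7%, and the median for all series summit windows was 43.8%. The windows past the 3' end of act-2 and at the act-3 promoter were below that median, at 37.3% and 39.3%. The others were above it, from 46.3% to 51.7%. Any pair of the 7 windows shared a longest common run of 7 to 12 bases.

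The peaks at the cluster can also be assigned to single places in the genome. All stretches of 50 bases within each of the 7 series peaks near an actin gene occurred once in the genome, and so did those in the 1000 bp upstream of each of the 5 genes. The genes themselves are near copies. The coding sequences of act-1 and act-3 did not differ at any of 1128 positions, those of act-1 and act-2 differed at 43 and those of act-1 and act-4 at 66. The encoded proteins of 376 residues were identical for act-1 and act-3 and differed at 3 residues for act-1 and act-2 and at 1 residue for act-1 and act-4. The act-5 protein has 375 residues and differed from the other 4 at 28 or 29 positions. In the coding part, 0% of the 50-base stretches of act-1 and of act-3 occurred once in the genome, against 68.1% for act-2, 88.2% for act-4 and 100% for act-5. Over the whole gene body the share was 13.8% for act-1, 59.1% for act-3 and 73.7% for act-2. Reads of that length from the coding parts of act-1 and act-3 cannot be told apart. The sources used here do not say how the authors treated such reads, so a lack of listed peaks within those coding parts cannot be read as a lack of PBRM-1. The series ranking did hold candidates within these genes. The strongest were in the coding sequence of act-1 (signal 39.0, IDR 0.626) and of act-2 (41.1, IDR 0.0219). In act-3 the strongest was in the 3' UTR (45.6, IDR 0.135).

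**Figure D1:**
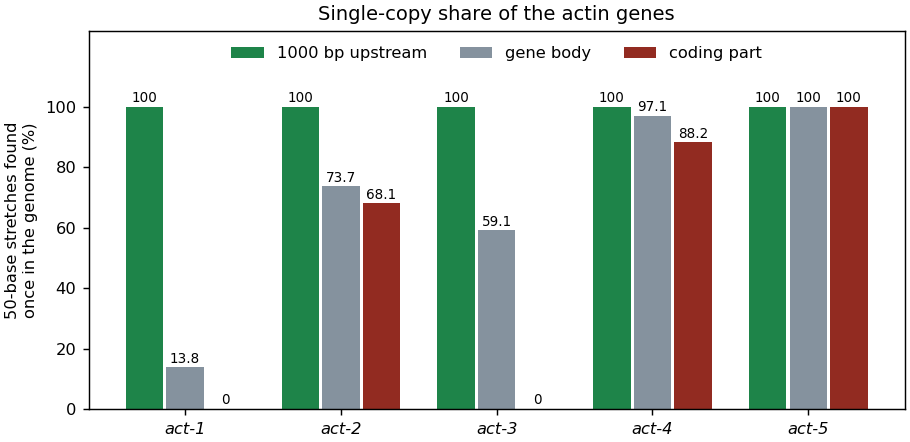
Share of 50-base stretches that occur once in the genome (vertical axis, percent) for each actin gene, in the 1000 bp upstream (green), the gene body (grey) and the coding part (red). The upstream bars all reach 100%, while the coding bars of act-1 and act-3 are at 0%.

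The act-2 promoter held the strongest of the actin peaks. Its peak at V:11078394-11078713, with the summit 400 bp upstream of the 5' end, had a signal of 177 in the series list, a q value of 0.000791 and rank 483 of 3243 by signal. In replicate 1 the signal was 72.2 with an IDR of 0.000383, and in replicate 2 it was 107 with an IDR of 0.0000159. The peak was thus in every list, and in each replicate it stood above 99.0% of that replicate's ranked candidates. The summits of the replicates lay within 13 and 3 bp of the series summit. The summit falls in exons of the annotated noncoding RNA genes T04C12.18 and T04C12.24, which lie in the gap between act-2 and act-1.

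A second strong peak lay on the other side of act-2, 117 bp past its 3' end. It spanned V:11076654-11076737, only 84 bp wide, with a series signal of 151 and rank 660. Its signal was 65.4 in replicate 1 (IDR 0.00174) and 83.5 in replicate 2 (IDR 0.0000987), and it was in the lists of both. This summit is outside every promoter window of the actin genes, since it lies between act-2 and the upstream region of act-3, within the noncoding RNA gene T04C12.14. The act-2 gene is therefore flanked by the 2 actin peaks that exceeded the median signal of the series list, 92.9.

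Another peak of the cluster was further upstream of act-3 than the promoter window reaches, at V:11075723-11076042, with the summit 1385 bp from the nearest 5' end of act-3. The series signal was 74.3 and its rank 2327. In replicate 1 the signal was 41.3 (IDR 0.00251) and in replicate 2 it was 46.1 (IDR 0.00497), so this peak too was in the lists of both replicates although its signal was below the median of each, 64.2 and 69.4. The summit lies in the noncoding RNA genes T04C12.15 and T04C12.21. The replicate 1 list held 1 more peak here, V:11076016-11076299, which overlaps its first peak and the series peak, whose signal was 4.17 and whose q value was 0.970, among 44 peaks under a signal of 10 in that list.

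These 2 peaks outside the promoter windows are shown because both replicates listed them. The stretch printed for the first covers V:11076600-11076720 and that for the second V:11075823-11075943, both on the minus strand, the strand of act-2 and act-3, with CCAAT and ATTGG in capitals.
act-2 downstream summit: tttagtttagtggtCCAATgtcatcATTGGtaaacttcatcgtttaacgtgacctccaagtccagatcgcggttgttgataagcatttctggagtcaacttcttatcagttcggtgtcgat
act-3 distal upstream summit: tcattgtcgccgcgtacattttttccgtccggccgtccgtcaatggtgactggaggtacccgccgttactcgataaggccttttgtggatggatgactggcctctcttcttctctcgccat
The stretch past act-2 holds CCAAT on both strands, whereas the stretch upstream of act-3 holds it on neither.

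The promoter peaks of act-3 and act-1 were weaker and were not in either replicate's own list. The act-3 peak, V:11074585-11074904, had its summit 247 bp upstream of the longest transcript's 5' end in intergenic DNA, with a series signal of 71.7 and rank 2459. Its signal was 37.0 in replicate 1 with an IDR of 0.0911, and 32.7 in replicate 2 with an IDR of 0.126, both over the threshold of 0.01. It nevertheless stood above 95.6% and 90.3% of the ranked candidates of the replicates.

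The act-1 peak, V:11080356-11080675, had its summit 536 bp upstream of the 5' end, in the noncoding RNA genes T04C12.16 and T04C12.25, with a series signal of 83.4 and rank 1952. Its signal was 35.4 in replicate 1 with an IDR of 0.0265, and 44.8 in replicate 2 with an IDR of 0.0216. Both values missed the threshold by less than those of act-3, and the peak stood above 95.1% of the candidates in replicate 1 and 95% in replicate 2. The act-1 and act-3 peaks were in the conservative list. The sources used here do not say which rankings were compared for the IDR of each list, so presence in the series list need not mean that a peak passed in each replicate.

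**Figure D2:**
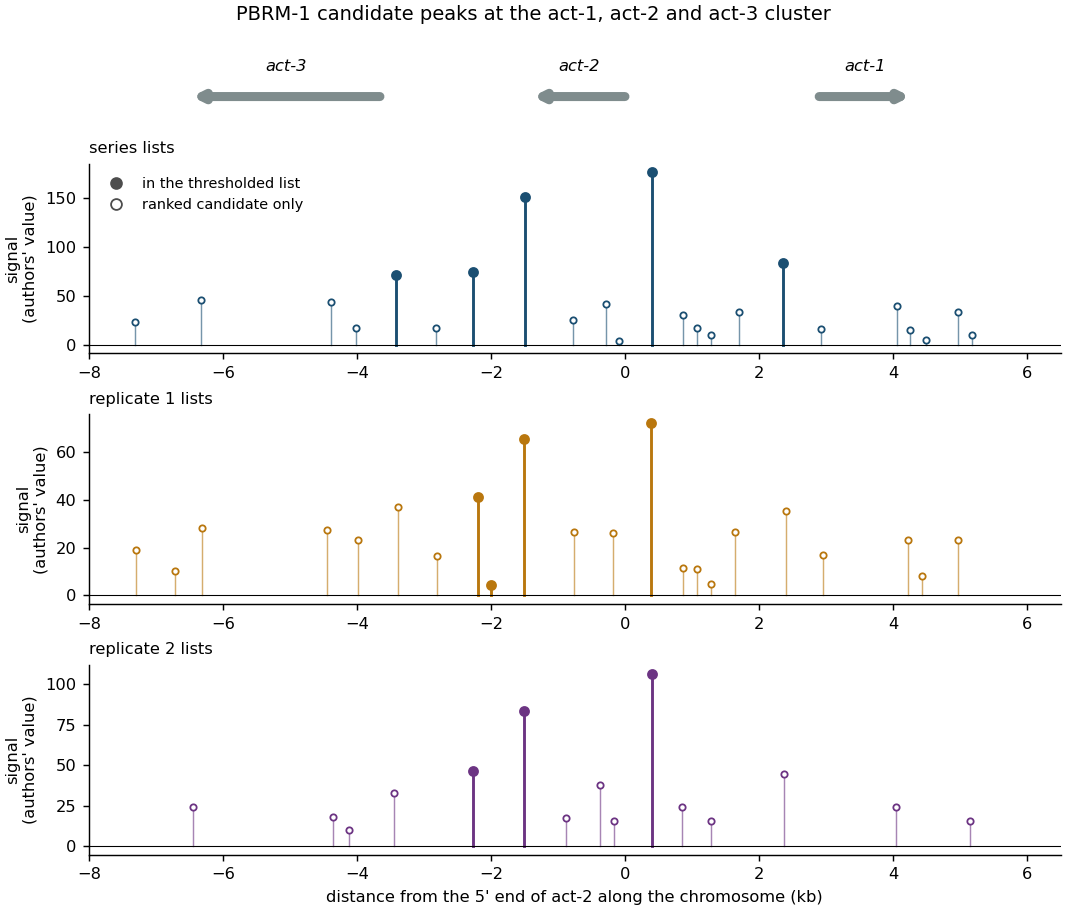
Signal (vertical axis, authors' value, scaled separately in each list) of every ranked candidate against its distance from the 5' end of act-2 along the chromosome in kilobases, for the series and each replicate. Filled points are peaks of the thresholded list and open points are candidates below it, and arrows show the 3 genes; the points on either side of act-2 are highest in all 3 panels.

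The 5 series peaks of the cluster lay within 5771 bp from first to last summit. In the whole series list 191 peaks, 5.89%, had at least 4 others within 6000 bp, a distance chosen after the spacing at the cluster was seen. Summits inside genes annotated with the biotype ncRNA were 4 of the 7 at actin genes and 372 of 3243 (11.5%) in the series list. Genes of that biotype cover 1.09% of the nuclear genome, and genes of other RNA biotypes were not counted. Of the 7 peaks, 3 overlapped peaks in both replicates' lists and 3 in neither, and over the series list 34.8% overlapped both and 32.4% neither. The 7 peaks are few and neighbours share a locus, so these shares are a description only.

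The act-4 gene, used in muscle, held its peaks at and just after its 5' end. The first, X:4960490-4960809, had its summit 29 bp downstream of the 5' end, in the 5' UTR, with a series signal of 74.2, a score of 858 where 830 is the lowest in the list, and rank 2335. In replicate 1 its signal was 21.9 with an IDR of 0.234, above 76.9% of the candidates, and in replicate 2 it was 48.7 with an IDR of 0.0784, above 95.8%. This peak was in neither replicate's list, and in the conservative ranking its IDR was 0.0523, so act-4 is called bound only by the series list.

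The second, X:4961082-4961401, had its summit 621 bp downstream of the 5' end, in an intron, with a series signal of 76.4 and rank 2239. Its signal was 31.5 in replicate 1 with an IDR of 0.0738, and 51.8 in replicate 2 with an IDR of 0.00322. It was in the replicate 2 list and the conservative list but not in the replicate 1 list. The rest of act-4 held 5 further candidates below the threshold, of which the strongest, at 57.9, had an IDR of 0.0103. The gene has a shorter transcript that begins inside it, at X:4962875, and in replicate 1 the strongest candidate in any act-4 promoter window, 31.9, lay 981 bp upstream of that internal 5' end rather than at the outer one.

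The DNA before the 5' end of act-4 and at the summit of its intron peak is shown because the first stretch lies within the peak at the 5' end, upstream of its summit, and the second spans the summit of the intron peak. They cover X:4960501-4960620 and X:4961182-4961302 on the plus strand, and capitals mark CCAAT and the TATA box TATAAA.
act-4 upstream: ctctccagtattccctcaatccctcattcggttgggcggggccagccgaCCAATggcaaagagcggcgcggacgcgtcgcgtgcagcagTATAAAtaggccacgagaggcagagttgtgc
act-4 intron summit: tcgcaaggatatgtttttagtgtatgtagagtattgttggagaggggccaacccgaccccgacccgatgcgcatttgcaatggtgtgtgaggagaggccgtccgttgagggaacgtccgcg
TATAAA began at position -31 of act-4, counted from the first transcribed base as annotated, and was present in 37.9% of the 19973 promoters from 250 bases before to 50 after the 5' end, on either strand. CCAAT began at -71 and -205 of act-4 and was present in 45.5% of those promoters. The intron stretch holds neither.

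At act-5, the intestinal actin, no candidate came near the thresholds. Its promoter window held 1 candidate of the series ranking, with a signal of 23.1, a q value of 0.882 and an IDR of 0.818, and its summit 932 bp upstream. Neither replicate's ranking held a candidate in that window. The strongest candidate near the gene, III:13605679-13605998, had its summit in the coding sequence 227 bp downstream of the 5' end, just past the window, with a series signal of 49.5 and an IDR of 0.281. The matching candidates had a signal of 26.0 in replicate 1 (IDR 0.477) and 20.98 in replicate 2 (IDR 0.524). Peak lists carry no depth, so this does not show that PBRM-1 is absent from act-5.

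**Figure D3:**
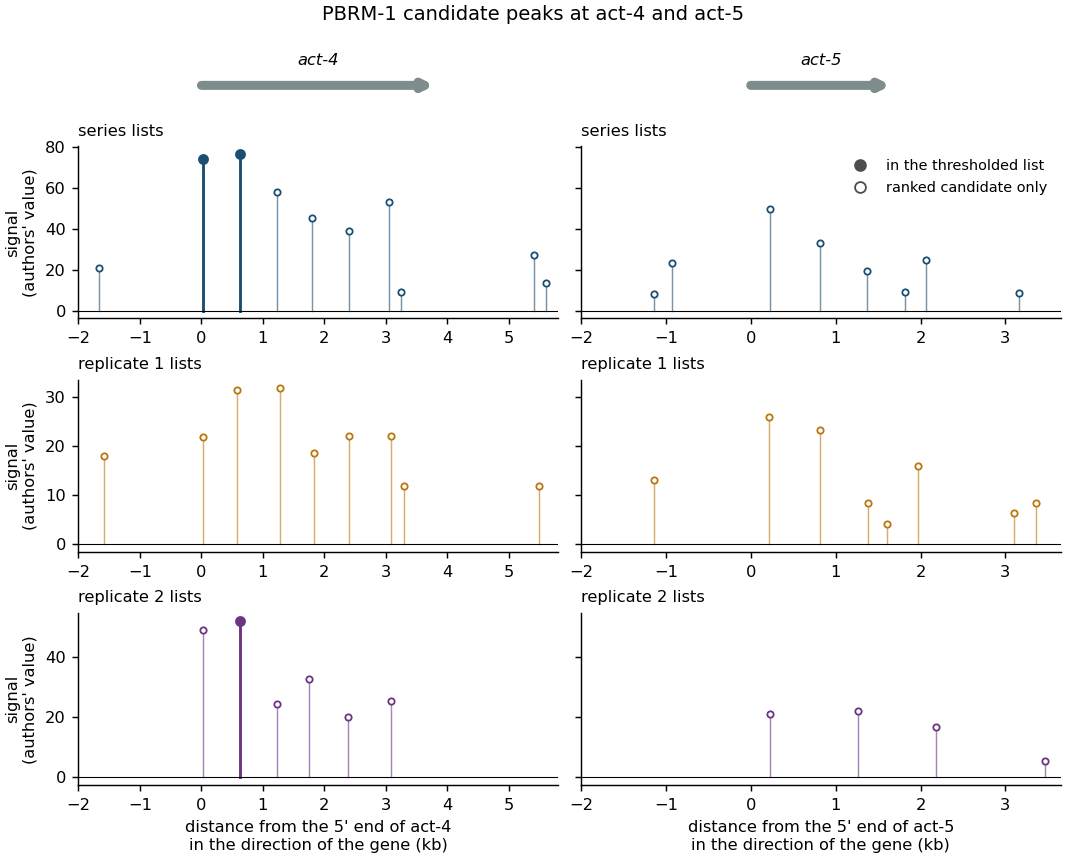
Signal (vertical axis, authors' value) of every ranked candidate at act-4 (left) and act-5 (right) against the distance from the gene's 5' end in its own direction, in kilobases, for the series and each replicate. Filled points passed the list threshold: 2 at act-4 in the series list, 1 in the replicate 2 list, and none at act-5.

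The upstream DNA of the other genes is given for comparison, as far as the annotated 5' end, because in C. elegans many messenger RNAs receive a spliced leader in place of their own first bases and an annotated 5' end may then be a splice acceptor. The stretches cover V:11080932-11081051 on the plus strand, V:11078155-11078274 on the minus strand and III:13606067-13606186 on the minus strand. Capitals mark TGATAA, the TATA box and CCAAT, each on either strand, and the last 6 bases.
act-1 upstream: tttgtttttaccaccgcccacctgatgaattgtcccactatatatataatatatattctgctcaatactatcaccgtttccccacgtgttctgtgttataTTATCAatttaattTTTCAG
act-2 upstream: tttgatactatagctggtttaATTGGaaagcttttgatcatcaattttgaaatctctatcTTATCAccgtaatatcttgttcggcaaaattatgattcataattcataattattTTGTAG
act-5 upstream: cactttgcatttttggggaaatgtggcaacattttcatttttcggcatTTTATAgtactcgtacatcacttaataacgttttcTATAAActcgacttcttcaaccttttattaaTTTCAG
The 5' ends of act-1, of act-5 and of the shortest act-3 transcript directly followed TTTCAG, as did 11.5% of the 29784 annotated 5' ends of protein-coding genes. That of act-2 followed TTGTAG. The longest act-3 transcripts and both act-4 transcripts did not follow AG, which 26.3% of all 5' ends did. The true start of transcription of act-1, act-2 and act-5 may thus lie upstream of the annotated end, nearer to or further from the summits than the distances given here. TGATAA, the site of GATA factors, occurred in the promoters of act-1 (at -20), act-2 (at -60) and act-5 (at -233 and -128), and in 30.2% of all promoters. TATAAA was present in act-5 at -72 and -37. GAGAGA occurred in act-2 and act-5 and in 21.8% of promoters, CANNTG in all but act-4 and in 69.4%, and the CArG box in none of the 5 and in 1.55%. A match describes the letters and is no evidence of a bound factor.

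Ranking every gene by the strongest candidate in its promoter window places the actin genes that have such a candidate without the IDR threshold. The series ranking had a candidate in the window for all 5 actin genes and for 66.0% of all protein-coding genes. The replicate 1 ranking had a candidate for 4 and 52.9%, and the replicate 2 ranking for 4 and 49.4%, with act-5 the missing gene in both. Among the genes with a candidate, act-2 exceeded 96.8% in the series, 95.9% in replicate 1 and 95.8% in replicate 2. The act-1 gene exceeded 89.2%, 85.0% and 82.8% in the same order, act-4 exceeded 87.2%, 81.3% and 84.7%, and act-3 exceeded 86.5%, 86.3% and 72.2%. The act-4 values are not of 1 site. In replicate 1 the value came from the candidate 981 bp upstream of the internal 5' end, and in the other 2 rankings from the one at the outer 5' end. The replicate 1 candidate at the outer 5' end had a signal of 21.9, between percentiles 57 and 58 of the genes with a candidate.

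The act-2 gene had the highest level of the actin genes in all 3 rankings. The act-5 gene had the lowest in the series ranking, above 27.2% of the genes with a candidate, and no level in either replicate. Its stronger candidate 227 bp downstream, with a series signal of 49.5, lay just past the window edge at 200 bp and was not counted. The act-5 level thus depends on where the window ends. The order of act-1, act-3 and act-4 changed between the replicates: act-3 was next after act-2 in replicate 1, at 37.0, and behind act-4 and act-1 in replicate 2, at 32.7. These 3 genes cannot be put in order by their replicates. The medians over genes with a candidate were 32.8 in the series, 20.0 in replicate 1 and 22.8 in replicate 2, and the values of act-1 to act-4 were above the median in each.

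**Figure D4:**
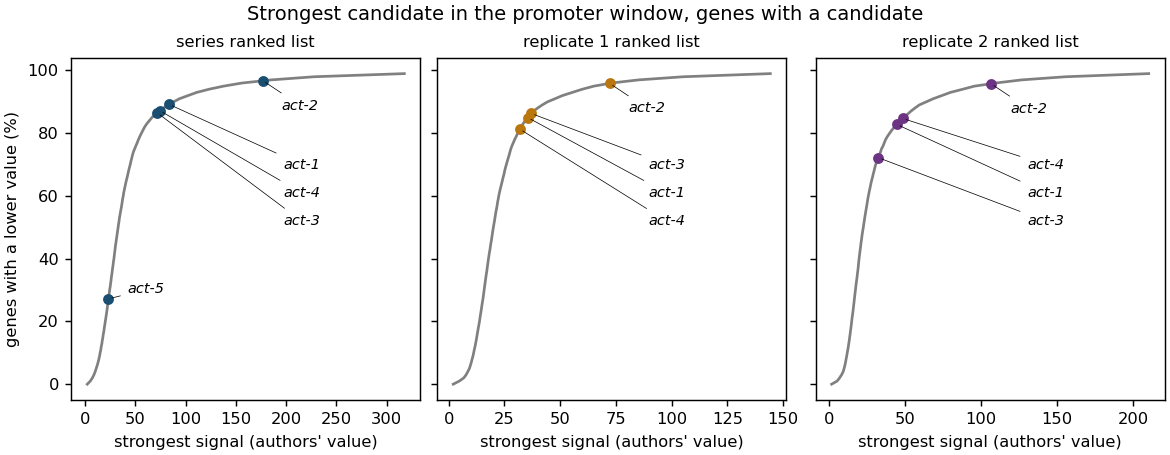
Percent of genes with a lower value (vertical axis) against the strongest signal in the promoter window (horizontal axis, authors' value), over genes with a candidate; the grey curve is all such genes up to 99% and points are actin genes. The act-2 point lies between 95.8% and 96.8% in the 3 panels, and act-5 appears in the series panel only.

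Among the 1971 genes bound in the series list, 417 had a stronger promoter peak than act-2, 1407 than act-1, 1626 than act-4 and 1691 than act-3. The median signal of the 4 bound actin genes was 78.8, beside 107 over all bound genes. The genes with the most similar signal in this list were nas-10 and ima-2 just above act-2 and ufbp-1 and vps-51 just below it, within 0.413 of its value. Those around act-1 were chp-1 and M60.4 above and F22F1.3 and nol-56 below, those around act-3 were sdha-2 and Y48A6B.7 above and mars-1 and F58B3.6 below, and those around act-4 were T06E6.1 and cyb-3 above and eif-2Bdelta and ZK355.2 below. Likeness here is the difference in signal in 1 list.

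No other protein-coding gene had the summit of act-1, act-2, act-3 or act-4 in its promoter window, though windows of 2, 3, 1 and 0 noncoding RNA genes did in that order. The genes beside the cluster, T04C12.8 on the act-3 side and Y42A5A.1 on the act-1 side, were not bound, nor were M03F4.4 and M03F4.6 beside act-4 or T05D4.5 and shpk-1 beside act-5. The strongest candidates in their windows had series signals of 8.23 at shpk-1 to 62.9 at M03F4.6, all below that of the act-3 peak.

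Other cytoskeletal genes were counted in the same way, by role. Of 39 genes of the muscle thin filament and sarcomere, 3 were bound in the series list (7.69%, beside 9.87% of all genes). In either replicate's own list 0 were bound, where 4.63% of all genes were in replicate 1 and 7.63% in replicate 2. The 3 bound in the series list were unc-112, the kindlin of muscle attachments, with a signal of 71.7, unc-89, the giant M-line protein obscurin, with 63.2, and atn-1, the Z-disc crosslinker alpha-actinin, with 4.07. All 3 signals were below the series median of 92.9, that of atn-1 far below. The share in the series list was near that of all genes.

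Of 37 genes of actin assembly, 5 were bound in the series list, 13.5% beside 9.87% of all genes. In the replicate 1 list 3 were bound, 8.11% beside 4.63%, and in the replicate 2 list 4 were, 10.8% beside 7.63%. The shares were above those of all genes but rest on few genes. The series list held cap-2, a subunit of the capping protein, with a signal of 409 and a summit shared with the window of gmps-1. It also held wve-1, which encodes WAVE, with 353 and a summit shared with R06C1.4. The others were gex-3 of the WAVE complex with 132, twf-2, a twinfilin, with 122, and arx-3, an Arp2/3 subunit, with 56.8. The genes cap-2, wve-1 and twf-2 were bound in both replicates. The signals of cap-2 and wve-1 exceeded that of act-2.

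Of 30 genes of the cortex, crosslinkers and junctions, 6 were bound in the series list, 20.0% beside 9.87% of all genes. In each replicate's list 3 were bound, 10% beside 4.63% of all genes in replicate 1 and 7.63% in replicate 2. The strongest were spc-1, alpha spectrin, with a signal of 191, nfm-1, the worm merlin, with 156, ajm-1 of the apical junction with 113 and ani-1, an anillin, with 91.5. The first 3 were bound in both replicates. Of 6 actin-related proteins, 1 was bound (16.7%), the same gene in the series list and in both replicates' lists. Of all genes, 9.87% were bound in the series list, 4.63% in replicate 1 and 7.63% in replicate 2. The bound gene was swsn-6, itself a SWI/SNF subunit, with a signal of 165 and a summit shared with perm-3. A share that rests on 1 gene of 6 is a description only.

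Of 16 tubulin genes, 5 were bound in the series list, 31.2% beside 9.87% of all genes. In the replicate 1 list 3 were bound, 18.8% beside 4.63%, and in the replicate 2 list 4 were, 25.0% beside 7.63%. They were tbb-1 and tbb-2, which encode beta tubulins, with 327 and 97.2, tba-2 and tba-1, which encode alpha tubulins, with 258 and 83.2, and tbg-1, gamma tubulin, with 182. The summits of tbb-1, tbg-1 and tba-1 were shared with rib-2, rpac-19 and cox-5B. Of 12 intermediate filament genes, 0 were bound in the series list or in either replicate's list, where 9.87%, 4.63% and 7.63% of all genes were. The actin share of 80.0% was the highest of these lists in the series list. It rests on 5 genes, of which act-1, act-2 and act-3 share 1 cluster, and in each replicate's own list it was 1 of 5. No list was tested.

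**Figure D5:**
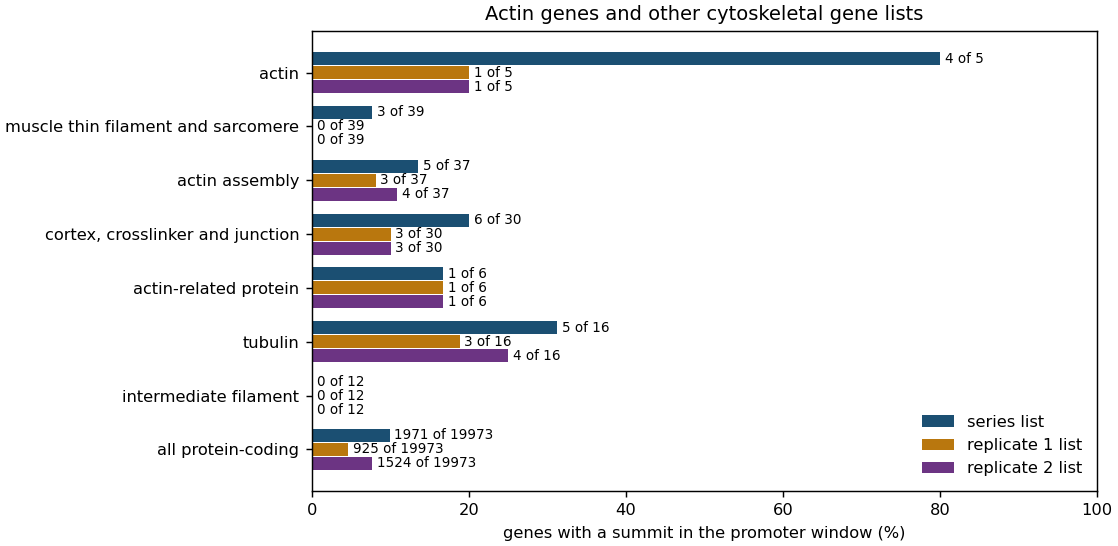
Percent of genes with a summit in the promoter window (horizontal axis) for each gene list and for all protein-coding genes, in the series list and each replicate's own list. Labels give the counts; actin has 4 of 5 in the series list and 1 of 5 in each replicate.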

How the data were processed

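The labels put both biological replicates in 1 group. The authors deposited 8 peak lists on ce11, made per replicate or from both replicates. The sources used here do not give the aligner, peak caller or read filters. Each deposited peak has a signal, with no stated scaling, and a score up to 1000. The authors deposited q values and, in the ranked lists, the global IDR as −log10. A score of 830 is the lowest in the series list and corresponds to an IDR of 0.01 in the deposited values.

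Summits were placed on Ensembl release 115 (WBcel235) transcripts with Python 3.11.15 and NumPy 2.4.6, and the window count was checked on simulated peaks. A replicate's value at a peak is that of its ranked candidate with the nearest summit, within 160 bp of the series summit. Sequences, translations and repeated stretches came from the RefSeq genome with Biopython 1.88, and plots from Matplotlib 3.10.9. Stretches of 36 bases were searched as well as 50. No test was made. The members and gene lists were chosen with earlier results of these data known. The gene ife-1 was removed from the intermediate filament list after counting, since it encodes a translation initiation factor, and inft-1, tmd-1 and ifa-2 had no match by symbol. Named are all members, up to 4 bound genes of largest signal per list (all where 5 or fewer were bound), the neighbouring genes, genes sharing a summit, and the 2 genes next above and below each bound member by signal. The alternatives were another list or replicate, window, strength filter, peak position or gene assignment.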

Additional observations from a re-analysis of the deposited data

How the results depend on the processing

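Of 10 alternatives, 3 moved the count of bound actin genes by more than 1.5 times from 4. Each replicate's own list alone gave 1, which was act-2 in both, 20.0% beside 4.63% of all genes in replicate 1 and 7.63% in replicate 2. Peaks at or above the median signal gave 1, 20.0% beside 6.01%. The other 7 gave 3 or 4, the conservative list without act-4 and the window of 500 bp upstream to 100 bp downstream without act-1. Leaving out a replicate gave 0 for sarcomere genes (3 in the series list), from 3 to 4 for actin assembly genes (5), 3 for cortex genes (6) and from 3 to 4 for tubulins (5). Sarcomere genes fell to 1 in the conservative list, 2.56% beside 8.99% of all genes, and to 1 in that narrow window, 2.56% beside 7.57%. They fell to 0 at or above the median signal, beside 6.01% of all genes. With q of 0.05 or less they fell to 1, 2.56% beside 8.52%. Cortex genes gave 1 in the narrow window, 11 in the window of 2000 bp upstream to 500 bp downstream and 3 at or above the median signal. Tubulins gave 3 in the narrow window and 3 when a summit counted for the nearest gene only. Intermediate filament genes rose from 0 to 2 of 12 in the wide window, 16.7% beside 13.2% of all genes, so near the share of all genes. The actin-related protein count was within the limit in all 10. With 36-base stretches, as with 50, all sequence of the 7 actin peaks occurred once in the genome. Read depth and the control are not known from peak lists, which limits what a missing peak can show, and 2 replicates of 1 group give no test.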
